A study of Homo sapiens with 4 samples.

Results

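Cassette exons of 28 to 51 nt were described in HEK293T cells, a human embryonic kidney cell line, with and without the splicing regulator RBFOX2. The exons were chosen by length alone, as the end minus the start of each exon in the authors' deposited table, and each exon was counted once however many events listed it. There were 1653 of them in 1412 genes, of 27483 exons in all. Stranded RNA-seq of total RNA without ribosomal RNA had been made from 4 clones. Of these, 2 were labelled wild type and 2 were labelled RBFOX2 KO, and the label titles name the gene by its other symbol, RBM9. The protocol text is the same for all 4 clones. It describes transfection of PX459, which encodes Cas9, with a second plasmid for guides to either side of RBFOX2, sorting of single cells, growth of clones and genotyping by PCR. Each library therefore came from a single clone, and differences between clones are part of every comparison below. The table held 0 events of RBFOX2, so it offered no check of the knockout, and it gives no expression levels from which the cell line could be checked.

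An exon that is either spliced in or left out is called a cassette exon. The spliceosome usually recognises a vertebrate exon by pairing factors across it, and a short exon leaves little room for the splicing enhancers that most exons carry. Many short exons depend on proteins bound in the introns beside them, and many are spliced in only in neurons or muscle. RBFOX proteins bind GCATG, with U for T in the RNA, near such exons. They generally favour inclusion when bound downstream of an exon and skipping when bound upstream.

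The inclusion level of an exon is the share of junction reads, scaled by effective length, that join it to its neighbours, from 0 to 1. The authors' deposited table gives the mean level of a first set of libraries minus that of a second set, together with p and its false discovery rate (FDR). Neither the header nor the labels tie a set to a genotype, so directions are given between the sets and say nothing of gain or loss without RBFOX2. Values per library carry only the number of the set. None could be tied to a clone, so inclusion per clone, read depth and the spread between clones are not given here. An event is the exon with 1 pair of flanking exons. An exon was called if any of its events had an FDR under 0.05 and an absolute difference of at least 0.1.

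The exons below had the lowest p-values in each direction among those that are fully coding, and are shown so that the sequences behind the lowest p-values can be read. Positions are 1-based on hg19, the build in the submitters' processing notes. The bases are those of GENCODE 29 transcripts, matched by gene, exon length and intron lengths, and read 5′ to 3′ on the gene's strand. Capitals mark an AG at the end of the exon, the bases that most often precede a 5′ splice site. In the first 6 exons, inclusion was higher in the first set.
CADM1, chr11:115069126-115069158, minus strand: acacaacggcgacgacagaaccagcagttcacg
PCBP2, chr12:53861589-53861627, plus strand: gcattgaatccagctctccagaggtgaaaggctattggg
APTX, chr9:32988081-32988127, minus strand: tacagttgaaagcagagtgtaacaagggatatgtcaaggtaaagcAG
IFI27L1, chr14:94567085-94567117, plus strand: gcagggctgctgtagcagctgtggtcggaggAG
SRSF10, chr1:24298063-24298113, minus strand: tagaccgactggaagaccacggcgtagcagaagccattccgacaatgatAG
COL25A1, chr4:109782083-109782127, minus strand: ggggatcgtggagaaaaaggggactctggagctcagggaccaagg

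In the next 6 exons, inclusion was higher in the second set.
MYO9B, chr19:17321142-17321189, plus strand: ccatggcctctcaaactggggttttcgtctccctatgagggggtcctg
MALT1, chr18:56378153-56378185, plus strand: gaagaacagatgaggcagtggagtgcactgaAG
ZDHHC11, chr5:833888-833922, minus strand: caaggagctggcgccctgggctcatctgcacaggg
PTBP2, chr1:97271975-97272008, plus strand: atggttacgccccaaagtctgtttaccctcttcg
NUMB, chr14:73783098-73783130, minus strand: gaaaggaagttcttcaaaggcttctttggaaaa
GNAS, chr20:57473996-57474040, plus strand: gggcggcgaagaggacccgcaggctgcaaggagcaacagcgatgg

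Of the 1653 short exons, 141 in 137 genes were called, or 8.53%, beside 5.73% of all exons in the table. Inclusion was higher in the first set for 84 short exons (5.08%, beside 3.08% of all exons) and in the second set for 57 (3.45%, beside 2.65%). The first set was thus the higher one in 59.6% of the called short exons and in 53.7% of called exons of all lengths. Among exons of 3 to 27 nt, 34 of 326 were called (10.4%). Among exons longer than 51 nt but under 300 nt, 1338 of 24272 were called (5.51%). No test of these shares was made, since exons of one gene and overlapping exons are not independent. The effective length over which inclusion reads are counted ran from 122 to 145 nt for the short exons and was longer for longer exons up to a fixed maximum, so it moves with length as the share called does; its part in the shares was not tested.

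The sizes of the called differences were close to those of other exons. Their median absolute difference was 0.268, beside 0.271 for called exons of all lengths. It was 0.246 where the first set was higher and 0.288 where the second set was higher. An absolute difference of at least 0.5 was listed for 27 called short exons (19.1%, beside 18.5% for all lengths). Without regard to calls, the median absolute difference was 0.061 for short exons and 0.048 for all exons. A large difference alone did not make a call: 465 of the 606 short exons with a difference of at least 0.1 were not called. The same count over all lengths is not given, so it cannot be read as particular to short exons. The authors' deposited table listed a difference of exactly 1 or -1 in 45 events of short exons, and 43 of these had a p-value of 1. Counted by exon, 36 short exons had such a difference and 2 of them were called. For all lengths, 465 exons had it and 19 of them were called.

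**Figure D1:**
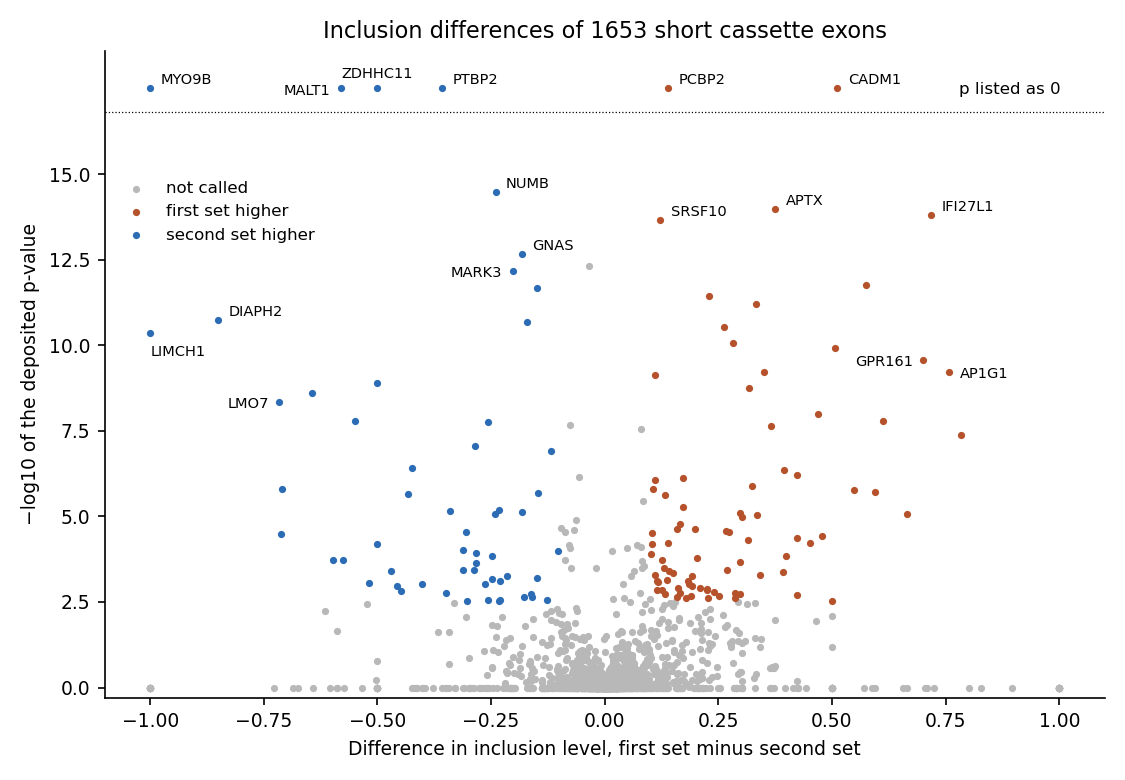
Each point is 1 of the 1653 short exons; the x axis is the difference in inclusion level (first set minus second set) and the y axis is −log10 of the deposited p-value, with the 6 exons whose p-value is listed as 0 drawn above the dotted line. Called exons are coloured by the set with the higher inclusion, and grey points on the bottom line show that large differences with a p-value of 1 are common.

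Lengths that keep the reading frame were common. A length divisible by 3 was found for 781 short exons (47.2%) and for 73 of the 141 called (51.8%). For all lengths these shares were 40.7% and 46%. The share among called short exons was 53.6% where the first set was higher and 49.1% where the second set was higher. The length with the most calls was 45 nt, with 12 of its 109 exons (11%). Some lengths with fewer exons had higher shares, such as 10 of 72 at 36 nt (13.9%) and 3 of 19 at 29 nt (15.8%). The share called was 9.39% from 28 to 33 nt, 10% from 34 to 39 nt, 9.33% from 40 to 45 nt and 6.74% from 46 to 51 nt. At the ends of the length range, 2 of 21 exons of 28 nt and 10 of 142 exons of 51 nt were called. Just outside it, 6 of 53 exons of 27 nt and 2 of 94 exons of 52 nt were called.

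**Figure D2:**
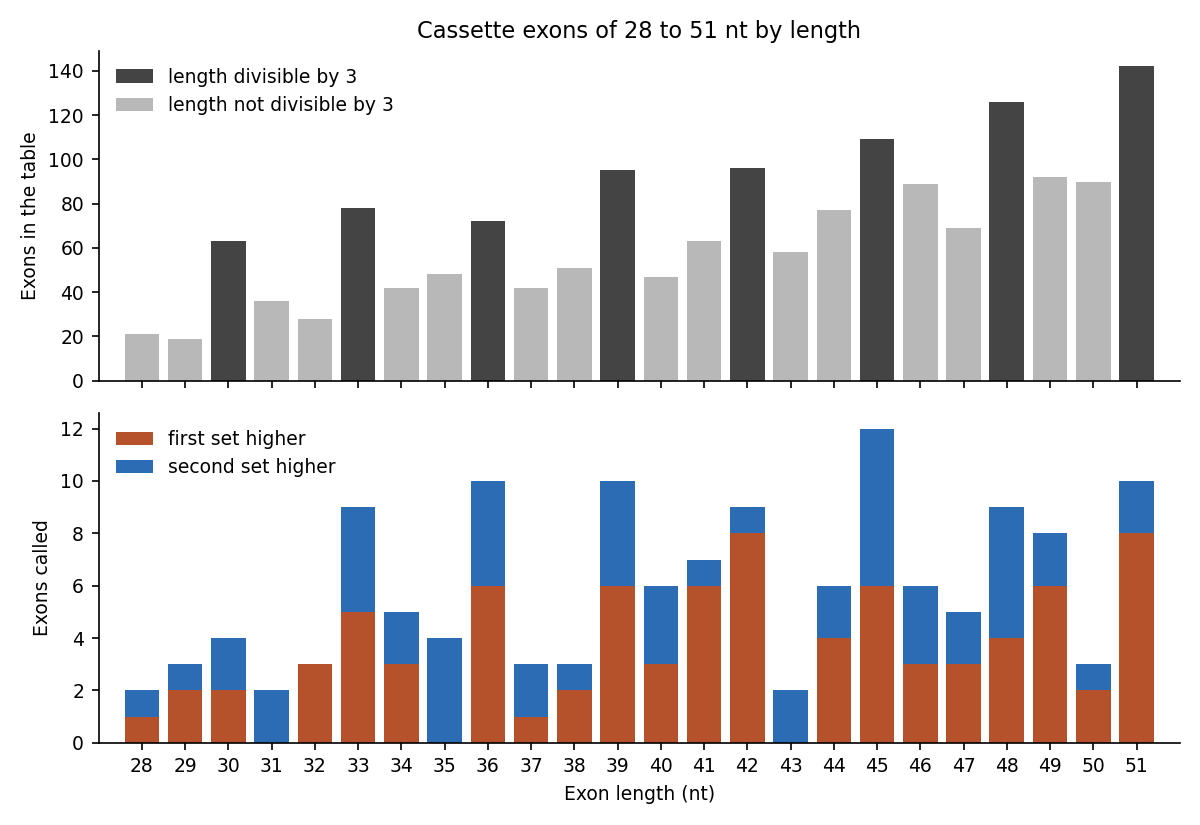
The x axis is exon length in nt; the upper bars count short exons in the table at each length, dark where the length is divisible by 3, and the lower bars count called exons, stacked by the set with the higher inclusion. Dark bars stand above their neighbours, from 63 exons at 30 nt to 142 at 51 nt. The highest count of calls is 12 of 109 exons at 45 nt, though other lengths had higher shares called.

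RNA-binding proteins were the list with the most called short exons. Of 23 short exons in listed RNA-processing genes, 5 were called (21.7%), 2 with the first set higher and 3 with the second set higher. The share was 8.53% for all short exons, 5.73% for all exons and 6.78% for the 177 exons of any length in these genes. The list's median absolute difference was 0.021, beside 0.061 for all short exons. PTBP2 encodes the neuronal polypyrimidine-tract-binding protein, and skipping of its 34-nt exon shifts the frame and is known to send the transcript to decay. This exon had a difference of -0.357 and an FDR listed as 0 in the authors' deposited table. HNRNPA2B1 encodes an hnRNP protein with the forms A2 and B1, which differ by a 36-nt exon near the start (chr7:26237451-26237486). In the authors' deposited table its difference was 0.111 (FDR 1.3e-07). HNRNPC, whose hnRNP protein coats nascent transcripts, has a 46-nt exon in its 5′ untranslated region. For this exon the authors' deposited table gave 0.14 (FDR 0.00208) in 1 event, and 0.051 and 0.02 in events too small in difference to be called.

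The remaining called exons of the list were in CELF1, a regulator of splicing and mRNA decay, and SRSF11, an SR-related splicing factor. The 40-nt CELF1 exon had -0.16 (FDR 0.0397) in the authors' deposited table, and it did not match the annotation. A 33-nt SRSF11 exon, seen only in noncoding transcripts, had -0.597 (FDR 0.00538) in the authors' deposited table and -0.01 in its other event. SRSF7, an SR protein, was not called because of the minimum difference: its 36-nt exon had 0.071 (FDR 0.00239) in the authors' deposited table.

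Further RNA-binding proteins outside that list were among the exons with the lowest p-values. PCBP2 encodes a poly(C)-binding protein, and its 39-nt exon had 0.14 with an FDR listed as 0 in the authors' deposited table. Its other event, at 0.076, was not called. SRSF10 encodes an SR protein that can act as a splicing repressor; the authors' deposited table gave its 51-nt exon 0.122 (FDR 1.2e-11). TIA1 encodes an RNA-binding protein of stress granules with forms that differ by a 33-nt exon (chr2:70456191-70456223). In the authors' deposited table this exon had 0.282 (FDR 1.94e-08). Inclusion was thus higher in the first set for PCBP2, SRSF10 and TIA1 and in the second set for PTBP2.

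Of 18 short exons in listed genes of the cytoskeleton and its motors, 3 were called (16.7%), each with the second set higher. The share was 8.53% for all short exons, 5.73% for all exons and 10.9% for the 174 exons of any length in these genes. Over all 18, called or not, the difference was above 0 in 7 and below 0 in 11. The median absolute difference of these 18 exons was 0.098, beside 0.061 for all short exons. MYO9B encodes an unconventional myosin, a motor protein that moves on actin. The authors' deposited table gave its 48-nt exon a difference of -1, from full skipping to full inclusion, with an FDR listed as 0. LIMCH1, an activator of non-muscle myosin II, also had -1 for a 36-nt exon at chr4:41640949-41640984 (FDR 1.04e-08) in the authors' deposited table. DIAPH2 encodes a formin, which builds unbranched actin filaments, and its 33-nt exon (chrX:95990757-95990789) had -0.851 (FDR 5.03e-09) in the authors' deposited table. Called exons of further cytoskeletal genes that were not on the list went both ways. Those with the first set higher included a 29-nt exon of KIFC3, a kinesin, at 0.664, a 32-nt exon of DMD, which encodes dystrophin, at 0.399, and a 36-nt exon of MYL6, a myosin light chain, at 0.165, in the authors' deposited table; these 3 were chosen after their values were seen. LMO7, a LIM-domain protein of cell junctions, had the second set higher; its 30-nt exon (chr13:76383290-76383319) had -0.716 (FDR 6.45e-07) in the authors' deposited table.

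Some of the exons with the lowest p-values were in signalling genes, for which no list was tested. MALT1 encodes the paracaspase that carries antigen-receptor signals to NF-kappaB, and its 33-nt exon separates the isoforms A and B. In the authors' deposited table this exon had -0.58 with an FDR listed as 0. NUMB, an inhibitor of Notch, has a 33-nt exon that lengthens its phosphotyrosine-binding domain, and the authors' deposited table gave it -0.24 (FDR 2.12e-12). GNAS encodes the stimulatory G protein subunit, whose long and short forms differ by a 45-nt exon. All 3 events of this exon were called, at -0.183, -0.131 and -0.217 in the authors' deposited table. Inclusion of these exons was higher in the second set.

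In CREB1 and GPR161 the first set was higher. CREB1 encodes the transcription factor activated by cyclic AMP, and its 42-nt exon at chr2:208425843-208425884, present in the alpha form, had 0.262 (FDR 7.33e-09) in the authors' deposited table. For GPR161, a receptor of primary cilia that restrains Hedgehog signalling, a 46-nt exon at chr1:168103114-168103159 had 0.701 (FDR 5.56e-08) in the authors' deposited table. Kinase and phosphatase genes held 14 short exons, of which 1 was called (7.14%, beside 8.53% of all short exons). The share was 5.73% for all exons and 7.61% for the 184 exons of any length in these genes. The median absolute difference of the 14 was 0.0525. The called exon was the 45-nt exon at chr14:103966493-103966537 of MARK3, a microtubule-affinity-regulating kinase, with -0.202 (FDR 2.53e-10) in the authors' deposited table. Paired with a different upstream exon, the same exon had 0.28 at a p-value of 1 in the authors' deposited table, so the listed direction of the MARK3 exon changes with the flanking exon.

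CADM1, an immunoglobulin-family adhesion molecule, had 0.512 for its 33-nt exon, with an FDR listed as 0 in the authors' deposited table. Among 14 short exons of membrane-trafficking genes, 2 were called (14.3%), both with the first set higher. The share was 8.53% for all short exons, 5.73% for all exons and 8.52% for the 176 exons of any length in these genes. The median absolute difference of the 14 was 0.0725. The 2 called were a 39-nt exon of OSBPL9, an oxysterol-binding-protein relative, at 0.365 (FDR 2.46e-06), and a 39-nt exon of SEC31A, an outer subunit of the COPII coat, at 0.298 (FDR 0.000383), in the authors' deposited table. A second event of the SEC31A exon had -0.089 and was not called. Over all 14, called or not, the difference was above 0 in 13 and below 0 in 1, beside 53.6% above 0 for all matched short exons. The 14 exons came from 11 genes, so they are not independent, and most of them were not called. Exons of OSBPL9 and SYNJ1 among them did not match the annotation, unlike those behind the 53.6%. The direction was not tested. Off the list, and chosen after their values were seen, exons of VPS29, a retromer subunit, and SYNRG, an AP-1 binding partner, had -0.709 (40 nt) and -0.302 (36 nt) in the authors' deposited table. The SYNRG exon was near the limit (FDR 0.0499) and did not match the annotation. Other trafficking exons off the list had the first set higher, among them EXOC1 at 0.315 and AP3S2 at 0.424 in the authors' deposited table. The AP3S2 exon was called in 1 of 2 events. The VPS29 exon was called in 1 of 4 events, and its highest event was 0.412. OSBPL8, which transfers lipids between the endoplasmic reticulum and the plasma membrane, had 0.506 and 0.475 for its 37-nt exon in the authors' deposited table, and both events were called. AP1G1 encodes a subunit of the clathrin adaptor AP-1. Its 38-nt exon in the 5′ untranslated region, at chr16:71841704-71841741, had 0.758 (FDR 1.11e-07) in the authors' deposited table.

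Transcription and chromatin genes held 19 short exons, and 2 were called (10.5%), 1 in each direction. The share was 8.53% for all short exons, 5.73% for all exons and 9.46% for the 222 exons of any length in these genes. The median absolute difference of the 19 was 0.066. MTA1, a subunit of the NuRD complex, had -0.233 for a 36-nt exon (FDR 0.000321) in the authors' deposited table. TCF7L2, the effector of Wnt signalling, had 0.423 for a 51-nt exon at chr10:114918426-114918476 (FDR 4.3e-05) in the authors' deposited table. Joined to other downstream exons, the TCF7L2 exon had -0.822 and -0.114, both at a p-value of 1 in the authors' deposited table. FOXM1, a cell-cycle transcription factor outside the list, had -0.17 for a 45-nt exon (FDR 5.68e-09) in the authors' deposited table. With a flanking exon whose splice site differs, the FOXM1 exon had -0.359 there and was not called.

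Genes known for RBFOX-responsive exons held few short exons. Of 16 listed genes, 6 had 1 short exon each, and 0 of these 6 exons were called under the authors' rMATS FDR, beside 5.73% of all exons and 8.53% of short exons; 0 also had an unadjusted p-value under 0.05. A count of 0 among so few exons says little. Of the 77 exons of any length in these genes, 6 were called (7.79%). The median absolute difference of the 6 short exons was 0.0585, beside 0.061 for all short exons. In the authors' deposited table the differences were 0.011 for ATP5C1 (ATP synthase gamma subunit), -0.091 for CLSTN1 (calsyntenin), -0.222 for EPB41 (protein 4.1), -0.5 for KIF21A (a kinesin), 0.026 for MBNL1 (a muscleblind splicing factor) and -0.022 for TSC2 (tuberin). The -0.5 of the 39-nt KIF21A exon had a p-value of 0.169 in the authors' deposited table.

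The remaining named exons were in genes of mixed function. APTX, a DNA strand-break repair enzyme, had 0.375 and 0.299 in the 2 events of its 47-nt exon in the authors' deposited table, both called. An APTX exon of 42 nt overlaps it and has the same 5′ splice site; it had 0.332 in the authors' deposited table and shares reads with the longer one, so the pair is not independent. IFI27L1, of an interferon-inducible family, had 0.718 for a 33-nt exon in the authors' deposited table, but 0.048 in its other event. COL25A1, a membrane collagen, had 0.575 for a 45-nt exon (FDR 5.84e-10) in the authors' deposited table. PRMT7, an arginine methyltransferase, had a 48-nt exon with 0.351 and ZCCHC10 a 42-nt exon with 0.318 in the authors' deposited table.

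GPBP1L1 had 0.229 for a 45-nt exon of its 5′ untranslated region in the authors' deposited table, while its other events had -0.054 and -0.03 and were not called. With the second set higher, UAP1, an enzyme of UDP-N-acetylglucosamine synthesis, had -0.149 for a 51-nt exon in the authors' deposited table. A UAP1 exon of 48 nt overlaps it and has the same 5′ splice site. This shorter exon had -0.054 at a p-value of 0.106 in the authors' deposited table and was not called. HEMK1, a methyltransferase, had -0.549 for a 50-nt exon in the authors' deposited table, and -0.23 in an event that was not called. RALGAPA1, which inactivates Ral GTPases, had -0.643 for a 31-nt exon in the authors' deposited table. ZDHHC11, a palmitoyltransferase, had -0.5 for a 35-nt exon with an FDR listed as 0 in the authors' deposited table. A closely related neighbouring copy, ZDHHC11B, exists, so its reads are uncertain. CLDND1 had -0.5 and -0.108 in called events of a 51-nt untranslated exon in the authors' deposited table. An event of the CLDND1 exon with another upstream exon had 0.377 there and was not called. A difference of exactly 0.5 or -0.5 was listed for 4 of the 141 called short exons, ZDHHC11 and CLDND1 among them. For called exons of all lengths it was listed for 44 of 1575. Inclusion per clone is not given, so whether both clones of a set shared such a difference was not tested. The other 104 called short exons had absolute differences from 0.102 to 0.783, with a median of 0.25.

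**Figure D3:**
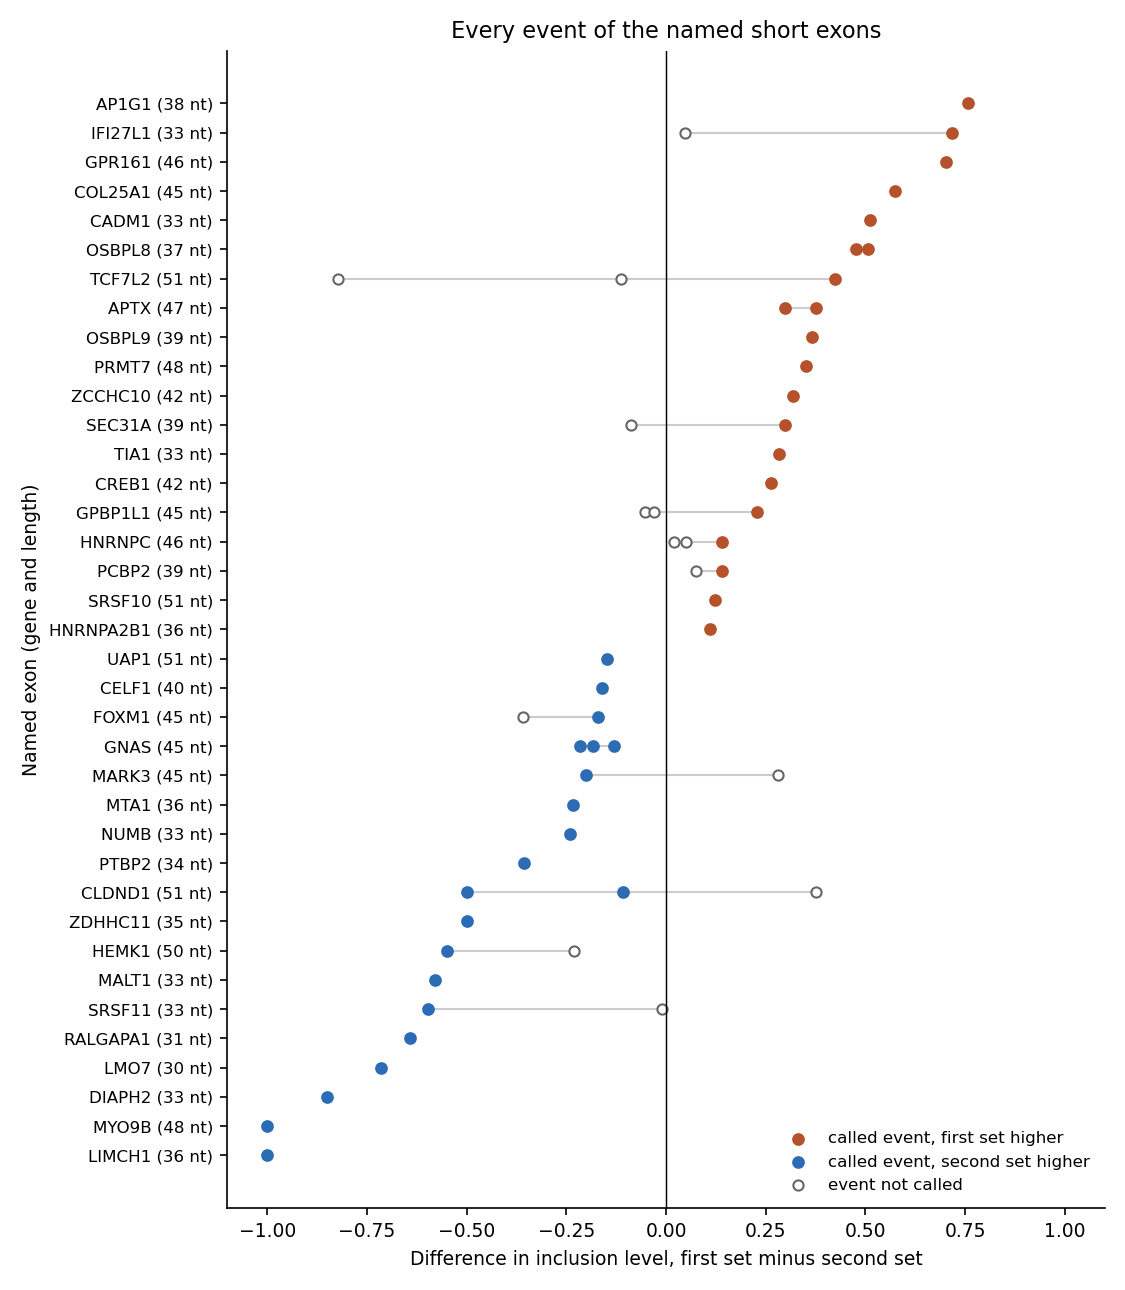
Rows are the 37 named exons with their lengths, and the x axis is the difference in inclusion level, first set minus second set, of every event of the exon; filled points are called events and open points events not called. Most exons have 1 event, from 0.758 for AP1G1 to -1 for MYO9B and LIMCH1, while TCF7L2, MARK3, SEC31A, GPBP1L1 and CLDND1 have open points on the other side of 0.

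Many called exons were listed with several pairs of flanking exons. Among the called short exons, 51 (36.2%) were listed in more than 1 event, beside 14.2% of all short exons. For all lengths these shares were 30% and 11.8%. An exon with more events had more chances of a call. The events of these 51 short exons that were not called numbered 70. Of these events, 37 had the direction of the called event and 33 the opposite direction. Called events in both directions were found for 2 exons, named here because of those values: a 38-nt exon of the antisense transcript PCBP1-AS1 and a 49-nt exon of GAPVD1, a regulator of endocytosis. Over all events, called or not, the lowest and highest differences were -1 and 0.218 for PCBP1-AS1 in the authors' deposited table. For GAPVD1 they were -0.248 and 0.306. Only 2 of the 6 PCBP1-AS1 events and 2 of the 3 GAPVD1 events were called. The called PCBP1-AS1 event with the lowest p-value had -0.306, and the event at -1 was not called. Whether reads were assigned by strand is not given in the sources used here, so the values of the antisense transcript are uncertain. Of the 137 genes with a called short exon, 35 (25.5%) also had a called exon of another length, and in 19 of these every called exon had the same direction. Over the whole table, 1253 of 9158 genes had a called exon of any length.

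Exons of equal length in related genes were set side by side. These pairs were chosen after their values were seen, and the difference within a pair was not tested. In the sequences below, capitals mark bases that differ between the pair. The 34-nt exons of PTBP2 and PTBP1 have 25 of 34 bases in common (73.5%). PTBP1, the widely expressed relative of PTBP2, had -0.004 at a p-value of 0.77 in the authors' deposited table, beside -0.357 for PTBP2.
PTBP2: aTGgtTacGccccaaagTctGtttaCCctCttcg
PTBP1, chr19:807869-807902: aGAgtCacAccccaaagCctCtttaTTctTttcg

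The 33-nt exons of the formins DIAPH2 and DIAPH3 share 19 bases (57.6%). For DIAPH3 the authors' deposited table gave 0.099 at a p-value of 0.118, beside -0.851 for DIAPH2.
DIAPH2: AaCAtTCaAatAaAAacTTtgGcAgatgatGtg
DIAPH3, chr13:60707091-60707123: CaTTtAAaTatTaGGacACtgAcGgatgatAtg

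The 45-nt exons of MARK3 and MARK2 share 22 bases (48.9%), with -0.202 and -0.04 in the authors' deposited table. The 36-nt exons of MBNL1 and MBNL2 share 31 bases (86.1%) and both hold GCATG; they had 0.026 and -0.086 in the authors' deposited table, and neither was called.

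The annotation divided the short exons by what they add to the transcript. A match in GENCODE 29 was found for 1505 of them (91%), of which 994 are fully coding. Of the fully coding exons, 52 of 567 with a length divisible by 3 were called (9.17%) and 24 of 427 with another length (5.62%). For all lengths these shares were 6.27% and 4.05%. Exons in 5′ untranslated regions had the highest share among classes with more than 100 short exons, 25 of 140 (17.9%), beside 10.3% of such exons of all lengths. Of exons seen only in noncoding transcripts, 7 of 143 were called (4.9%), all with the second set higher. Over all lengths, 144 of 2246 such exons were called (6.41%), 67 with the first and 77 with the second set higher. Of those seen only in transcripts marked for nonsense-mediated decay, 9 of 139 were called (6.47%), 8 with the first set higher. Over all lengths, 142 of 2524 were called (5.63%), 82 with the first and 60 with the second set higher. The skipping form was itself annotated for 998 matched short exons, of which 118 were called (11.8%), beside 11 of 507 (2.17%) where it was not. For all lengths these shares were 8.81% and 2.32%. Among fully coding short exons with annotated skipping, 47 of 389 with a length divisible by 3 were called (12.1%) and 19 of 201 with another length (9.45%). The same classes had 10.2% and 7.66% called over all lengths, a gap of about the same size.

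**Figure D4:**
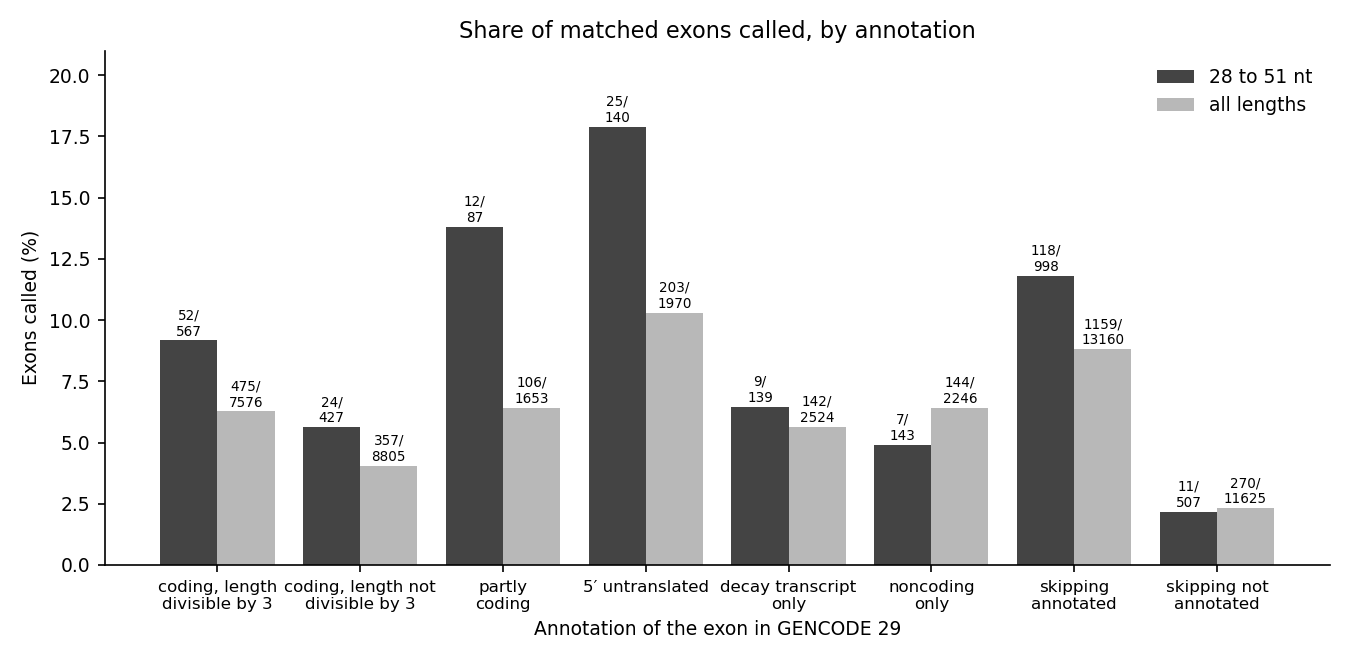
Bars give the percentage of matched exons called in each annotation class, dark for exons of 28 to 51 nt and grey for exons of all lengths, with the number called over the number of exons above each bar. The tallest dark bar is the 5′ untranslated class (25 of 140), and both bars are low where skipping is not annotated.

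The flanking introns of called short exons had medians of 1616 nt upstream and 2212 nt downstream, beside 1851 and 1877 nt for all short exons and 2152 and 2016 nt for exons of all lengths. Where the first set was higher the medians were 1353 and 1710.5 nt, and where the second set was higher 2062 and 2769 nt. Among called short exons the flanking introns ran from 81 to 67585 nt. Another cassette exon of the table was a direct neighbour of 45 called short exons (31.9%, beside 30.7% of all short exons). In 3 cases that neighbour was itself called (2.13%, beside 2.72% of all short exons and 4.32% of called exons of all lengths). The last base was G in 86% of the called and 78.8% of all matched short exons. Median GC content was 46.2% in both, beside 50% for exons of all lengths.

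GCATG was searched for within the matched exons on the transcribed strand. It was present in 45 of 1505 short exons (2.99%) and in 6 of the 129 called and matched ones (4.65%). No expected share for sequences of this length was computed. Longer exons hold it more often, with 11.6% over all lengths. All 6 called exons with the motif had the first set higher; over all 45, the difference was above 0 in 28 and below 0 in 17, beside 53.6% above 0 for all matched short exons. These sites lie in exons that are untranslated or only partly coding, so the motif (in capitals) is shown with at most 6 bases on each side. A match describes the letters only, and the intronic sequence, where RBFOX proteins mostly bind, was not examined.
SEPT6, exon at chrX:118759298-118759342: tttgctGCATGctGCATGagaccc
FAM222B, exon at chr17:27117396-27117443: ttcactGCATGatttca
PLD3, exon at chr19:40871460-40871492: gtaatGCATGtccatg
PXK, exon at chr3:58406263-58406295: tagaGCATGcaccat
MORF4L2, exon at chrX:102939609-102939657: gacagtGCATGgcacat
LARP4, exon at chr12:50806188-50806236: taagtgGCATGggattt

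SEPT6, a septin that was on none of the lists and whose 45-nt exon holds the motif in 2 copies, had 0.47 (FDR 1.29e-06) in the authors' deposited table and 0.055 in its other event, which was not called. The FAM222B exon, of 48 nt, had 0.612 (FDR 1.92e-06) and 0.236 in its called events in the authors' deposited table. PLD3, an exonuclease of the phospholipase D family found in lysosomes, had 0.301 for a 33-nt exon in the authors' deposited table. Only 1 of the 4 events of the PLD3 exon was called, and the lowest of them was -0.287. The smaller differences in the authors' deposited table were 0.191 for PXK, 0.191 for LARP4, a poly(A)-binding translation factor, and 0.116 for MORF4L2, a chromatin protein. LARP4 and MORF4L2 each had 1 called event, and their uncalled events ran up to 1 and down to -0.004.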

How the data were processed

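Cassette exon events were taken from a single table of the whole series, the skipped-exon output of rMATS on junction reads, per the file headers and name. STAR 2.7.3a and hg19 are named in the submitters' processing notes, with no role given; the rMATS version and annotation are not given in the sources used here. The p-value and FDR are the authors' deposited values. A Benjamini-Hochberg adjustment over all 31408 events returned that FDR (largest gap 1.11e-16). The sign of the inclusion difference follows the rMATS convention. The 6 columns of values per library were not used, because their names match no label, and depth is therefore unknown here. The p-values are for the difference between the 2 sets. They rest on these libraries alone, 2 for each genotype in the labels, and do not cover variation between further clones.

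Events with the same exon start, end, chromosome and strand were taken as 1 exon. A called exon takes the values of its called event with the lowest p-value, and an exon not called those of its event with the lowest p-value. Exons were matched to GENCODE 29 by gene, exon length and the lengths of both introns, without coordinates. Named exons are the 15 called short exons of lowest p-value in each direction, 1 per gene, and every called short exon of 6 gene lists; exons with GCATG, pairs of related genes and others said to be so were chosen after their values were known. The members, lists and rules were chosen with earlier results of these data known. The calling and matching steps were tested on simulated data. Python 3.11.15, pandas 2.3.3, numpy 2.4.6 and statsmodels 0.14.6 were used.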

Additional observations from a re-analysis of the deposited data

How the results depend on the processing

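The 141 called short exons became 93 at an FDR under 0.01, 46 under a Bonferroni correction over the table and 90 among exons listed in 1 event only; the stricter limits and fewer exons give lower counts by construction. The shares called were then 5.63%, 2.78% and 6.34%, beside 3.91%, 1.68% and 4.55% of all exons. Under the other alternatives (FDR under 0.1, no minimum difference or 0.2, correction for the events of an exon, 1 exon per gene, lengths of 31 to 48 or 25 to 54 nt), the count ran from 95 to 172. The share with a length divisible by 3 rose from 51.8% to 60.2% at an FDR under 0.01 and 69.6% under Bonferroni. Both lie outside the Wilson 95% interval of the main value (43.6% to 59.9%). This interval treats exons as independent, and the stricter sets are parts of the same 141 exons, so it serves only as a yardstick. The same share over all lengths is not given at these limits, and the cause of the rise was not tested. The share with the first set higher stayed within its interval (51.3% to 67.3%) under every alternative run. At a minimum difference of 0.2 it fell from 59.6% to 51.6% (49 of 95), close to the lower end. Of the 37 named exons, 36 passed at an FDR under 0.01, 32 under Bonferroni and 30 at a minimum difference of 0.2. Most of the 37 had been chosen for the lowest p-values, so passing a stricter p-value limit was largely fixed in advance. The 5 that did not pass Bonferroni (SEC31A, HNRNPC, CELF1, MTA1 and SRSF11) had all been added from the gene lists. By the median over all events the direction turned for TCF7L2 (-0.114), GPBP1L1 (-0.03) and MARK3 (0.039). No paired analysis was possible because no column could be tied to a replicate number. Leaving out each library was not run for the same reason.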

Other observations

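A few called short exons outside the named set are described here; they were picked after their values were seen. NF2 encodes merlin, a tumour suppressor whose isoforms end differently depending on a 45-nt exon, and this exon had -0.118 (FDR 1.07e-05) in the authors' deposited table. AKAP8, a nuclear anchoring protein for protein kinase A, had 0.173 for a 39-nt exon (FDR 5.21e-05) in the authors' deposited table. SLMAP, a tail-anchored membrane protein of the STRIPAK complex, had 0.325 for a 51-nt exon, with calls for 2 of 4 events, per the authors' deposited table. ZNF211, a zinc finger protein, had -0.425 for a 39-nt exon in the authors' deposited table.

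In 4 genes, 2 short exons were called. Both were higher in the first set in DMKN, at 0.202 and 0.151 in the authors' deposited table, and in APTX, where the exons overlap. In DMKN only 1 of 4 and 1 of 2 events were called, and the lowest events were 0.034 and 0.014. In FAM222B they had 0.612 and -0.148, and in TMEM241 0.394 and -0.264, in the authors' deposited table. The largest difference among called exons outside the named set was 0.783, for a 50-nt exon of the potassium channel gene KCNT2 that is annotated only in transcripts marked for decay. With another upstream exon, the authors' deposited table gave the KCNT2 exon 1 at a p-value of 1.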
